A study of Mus musculus with 3 samples.

Results

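Genes that hold cells in the G1 phase of the cell cycle were followed through the mouse lung, 8 out of 31054 features in the count matrices: the INK4 inhibitors Cdkn2a, Cdkn2b, Cdkn2c and Cdkn2d, the CIP/KIP inhibitors Cdkn1b and Cdkn1c, and the pocket proteins Rb1 and Rbl2. They were chosen by name. Lung cells had been profiled by droplet 3′ single-cell RNA sequencing in 3 libraries, 1 per group. The groups were wild-type mice that were not irradiated, wild-type mice that were irradiated, and conditional knockout mice that were irradiated and given a drug. The last group differs from the irradiated wild-type group by both the knockout and the drug, which cannot be told apart. The labels name neither the deleted gene nor the drug, so deletion could not be checked, and the driver of the deletion, the number and age of the mice, the strain, the dose and the time are given by none of the sources used.

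INK4 proteins bind the kinases Cdk4 and Cdk6 and keep them from joining D-type cyclins. CIP/KIP proteins bind cyclin-kinase complexes, above all those of Cdk2. When these kinases are held back, the pocket proteins stay unphosphorylated and bound to E2F factors, and genes of DNA replication stay off. Cdkn2a and Cdkn2b are widely used as markers of lasting arrest (senescence), while Cdkn1b, Cdkn1c, Cdkn2c and Cdkn2d are also known from resting and differentiated cells. Ionising radiation is best known for inducing the p53 target Cdkn1a, which was taken here as a gene for reference and not as a member.

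Cdkn2a and Cdkn2b are neighbours on chromosome 4 of GRCm38, both on the minus strand, at 89274471 to 89294653 and 89306299 to 89311039. Cdkn2a has 2 transcripts in GENCODE vM21, with first exons of their own at 89281986 to 89282192 (the Ink4a start) and 89294334 to 89294653 (the Arf start), and the same exon 2. Exon 3 of the Ink4a transcript spans 89274471 to 89274774 and that of the Arf transcript 89274541 to 89274774, so they overlap near the 3′ end where these libraries are read, and the counts of Cdkn2a sum both products. Cdkn2c lies on the same chromosome at 109660876 to 109667189, minus strand. Cdkn2d is on chromosome 9 at 21288410 to 21291407, minus strand, and Cdkn1b on chromosome 6 at 134920401 to 134925513, plus strand. Cdkn1c is on chromosome 7 at 143458339 to 143461050, minus strand, Rb1 on chromosome 14 at 73183673 to 73325822, minus strand, and Rbl2 on chromosome 8 at 91070057 to 91123844, plus strand. Rb1 overlaps Rcbtb2 and Lpar6 on the opposite strand and Rbl2 overlaps Aktip. The counting rule for strand is not given in the sources used here, so reads of such pairs may not be separable.

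Promoter windows from RefSeq (GRCm38.p6) were found for 6 of the 8 genes. Those shown are of the 3 genes the results turn on most, each the 250 bases before a RefSeq transcript start. They run 5′ to 3′ on the gene's own strand, with motif matches in capitals. By the GENCODE spans above, the Arf, Cdkn2b and Cdkn2d windows reach into the annotated gene, and the whole Ink4a window lies inside the Cdkn2a span. Most of the Cdkn2d window, with its GC boxes, lies inside the Cdkn2d span. The motifs searched on both strands were E2F sites (TTTCCCGC, TTTCGCGC, TTTGCCGC or TTTGGCGC), the GC box (GGGCGG) and the CHR element (TTTGAA).
Cdkn2a, Arf start, chr4:89294620-89294869: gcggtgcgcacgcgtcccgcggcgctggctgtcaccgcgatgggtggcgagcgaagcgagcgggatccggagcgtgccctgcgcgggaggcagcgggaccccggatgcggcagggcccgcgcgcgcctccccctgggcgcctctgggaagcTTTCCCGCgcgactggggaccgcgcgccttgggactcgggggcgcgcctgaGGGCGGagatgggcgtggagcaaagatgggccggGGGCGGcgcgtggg
Cdkn2a, Ink4a start, chr4:89282193-89282442: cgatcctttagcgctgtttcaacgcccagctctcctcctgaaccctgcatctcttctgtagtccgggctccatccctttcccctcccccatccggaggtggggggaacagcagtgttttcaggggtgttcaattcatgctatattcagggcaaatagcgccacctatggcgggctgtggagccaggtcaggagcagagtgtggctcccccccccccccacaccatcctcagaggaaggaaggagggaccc
Cdkn2b, chr4:89311033-89311282: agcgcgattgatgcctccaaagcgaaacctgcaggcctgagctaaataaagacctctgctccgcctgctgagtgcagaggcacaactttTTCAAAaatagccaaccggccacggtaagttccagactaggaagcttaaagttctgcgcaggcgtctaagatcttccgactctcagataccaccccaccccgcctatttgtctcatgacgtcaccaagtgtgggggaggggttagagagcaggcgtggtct
Cdkn2d, chr9:21291210-21291459: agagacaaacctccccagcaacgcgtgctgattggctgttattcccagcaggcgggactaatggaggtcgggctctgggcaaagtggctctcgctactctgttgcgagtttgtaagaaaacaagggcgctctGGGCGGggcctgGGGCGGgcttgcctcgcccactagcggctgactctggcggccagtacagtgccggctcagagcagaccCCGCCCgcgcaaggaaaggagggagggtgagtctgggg
The Arf window held 1 E2F match and 2 GC boxes, while the Ink4a window held none of the 3 motifs. Cdkn2b had 1 CHR match and Cdkn2d had 3 GC boxes. Among 32851 windows of the same length, 1.86% held an E2F match, 32.7% a GC box and 16.0% a CHR match. A match describes the letters only.

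The libraries held 85984536, 45800421 and 76667310 unique molecular identifiers (UMIs, counted molecules), and 13091, 5805 and 9886 cells passed the limits on genes and mitochondrial UMIs. Here and below, 3 values in a row follow the order in which the groups were introduced, with the irradiated knockout library last. Cells were put in 6 classes by marker UMIs: 1859, 2674 and 5103 T cells, 1425, 571 and 763 B cells, 318, 339 and 463 NK cells, 2945, 401 and 695 endothelial cells, 3950, 424 and 963 fibroblasts, and 448, 118 and 190 epithelial cells. A cell could meet more than 1 rule, as 12.5%, 7.44% and 7.90% of classed cells did. Pairs of libraries shared 18 to 32 cell barcodes. Cells with UMIs of Y-linked genes and none of Xist numbered 1, 1595 and 27, so the irradiated wild-type library holds cells of both sexes (27.5% male by this count). Levels are given as CPM, UMIs per 1000000 UMIs of the class in that library. Since each group is a single library, the spread between animals is unknown and no test was made, and differences are between these libraries. Brackets hold exact 95% intervals, which cover counting error only.

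The endothelial rule, at least 2 UMIs of Pecam1 and Cdh5 together, collected different cells in the irradiated libraries. A UMI of the leukocyte gene Ptprc was found in 22.7%, 73.3% and 60.3% of these cells, and a UMI of Cdh5, which marks endothelium, in 84.0%, 24.4% and 38.8%. Of them, 236, 177 and 288 also met the T cell rule. Endothelial levels are therefore given both by the rule and in the 2096, 88 and 215 endothelial cells with no UMI of Ptprc, Cd3d, Cd3e, Cd3g, Cd79a or Ncr1 (below, leukocyte-marker-free cells). This split was chosen after the data were seen. In the leukocyte-marker-free cells all 6 endothelial markers were detected, with a summed level of 7551, 6462 and 6544 CPM, and 4 of the 7 T cell markers were, summing to 18, 41.4 and 32.3 CPM, with Cd3d, Cd3e and Cd3g at 0 by the selection. The 5 myeloid markers summed to 1064, 1521 and 1512 CPM in them and the 6 fibroblast markers to 7038, 3470.5 and 6040 CPM. The 6 epithelial markers summed to 6106, 7029 and 8204 CPM, in the irradiated libraries above the endothelial sum, and the alveolar and airway genes Sftpc, Sftpa1 and Scgb1a1 to 24476, 40123 and 11354 CPM. The part of these other cell types in the results was not tested.

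**Figure D1:**
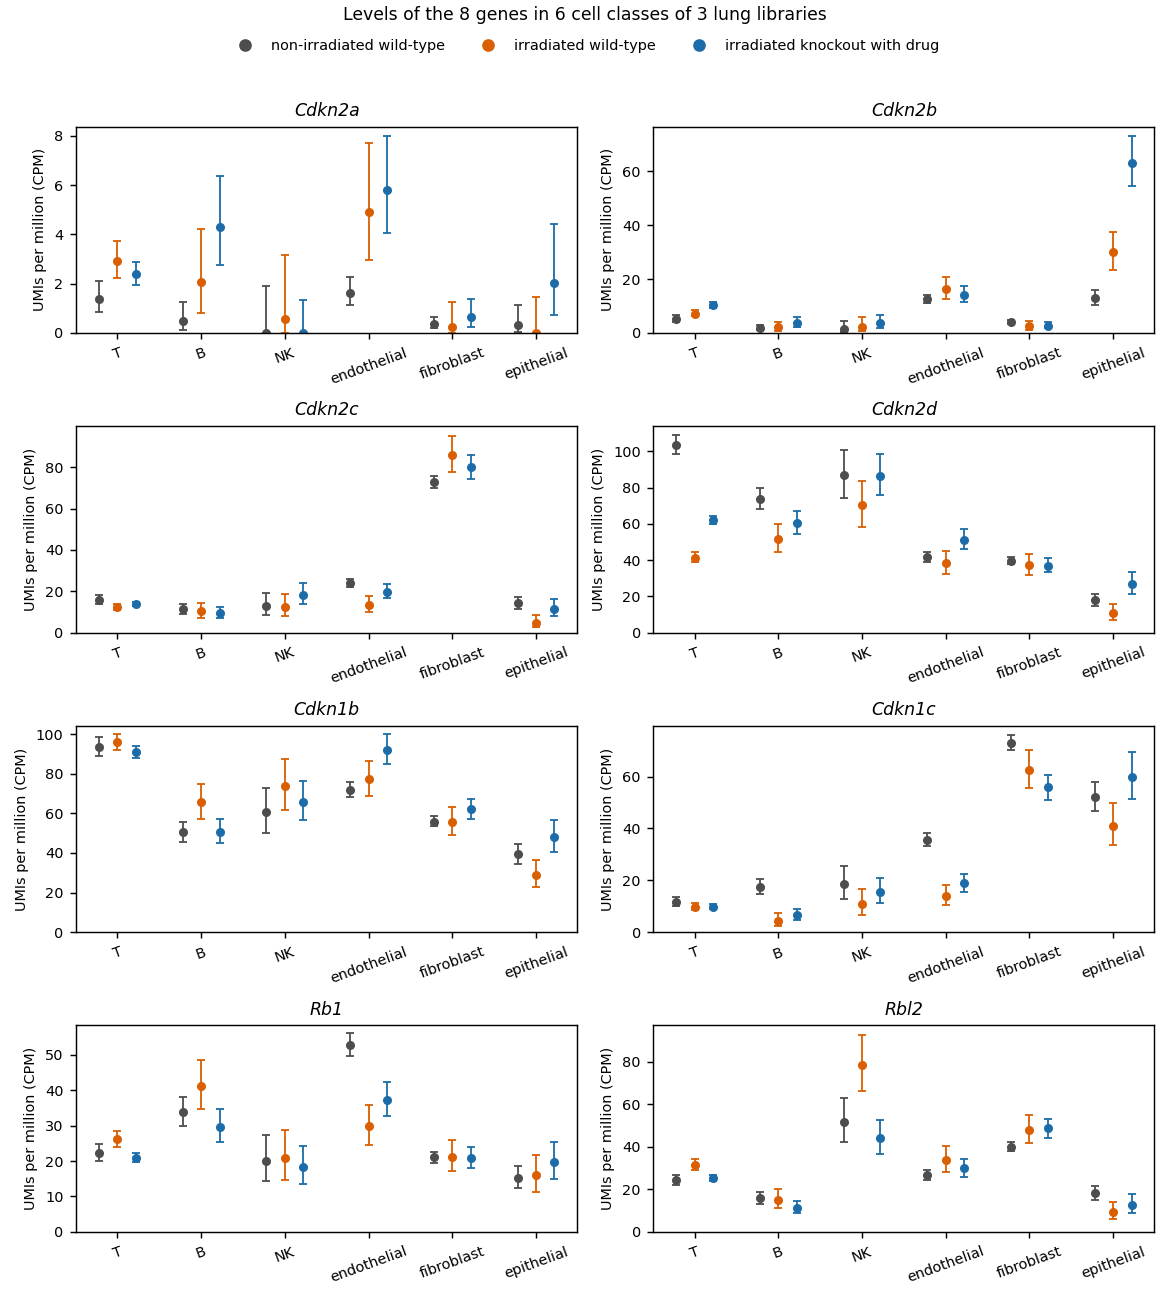
UMIs per 1000000 (CPM, vertical axis) of each gene in the 6 classes of each library, with points for libraries and bars for 95% counting intervals. Cdkn2d in T cells stands at 103, 41.4 and 62.2 CPM, Cdkn2b in epithelial cells at 12.9, 29.9 and 63.3 CPM, and Cdkn2c is highest in fibroblasts in all 3 libraries.

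A gene was called apart between 2 libraries when the ratio of their CPM, with 5 CPM added to each, was at least 2-fold and the higher library held at least 30 UMIs. Of 48 gene and class combinations, 40 had enough UMIs for the irradiated against the non-irradiated wild-type library, and 3 of them were called lower and 0 higher. Over all genes in the 6 classes 6.72% of such combinations were called lower and 2.63% higher. The 3 were Cdkn2d in T cells, where 5.23% of all genes were called lower, Cdkn1c in B cells (7.57% of genes) and Cdkn1c in endothelial cells by the rule (12.4% of genes). For the irradiated knockout against the non-irradiated wild-type library, 1 of 42 was called, Cdkn2b in epithelial cells, higher, where 5.87% of genes were. Over all genes and classes 2.14% were called higher and 4.86% lower in that pair. For the irradiated knockout against the irradiated wild-type library, 1 of 41 was called, Cdkn2d in epithelial cells, higher, where 1.8% of genes were, against 1.34% higher and 0.719% lower over all genes and classes. At 3 of 40, 1 of 42 and 1 of 41, the members' counts were near those backgrounds, and each call is described on its own. The 3 pairs share libraries and are not independent.

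Cdkn2a, which encodes the INK4 inhibitor and, from the Arf start, an activator of p53, was close to the detection limit. In all kept cells of each library it had 75, 160 and 225 UMIs, in 54, 64 and 126 cells, or 0.909, 3.71 and 3.03 CPM. The irradiated libraries were thus both above the non-irradiated one. Much of the difference sat in a few cells, however: of the irradiated wild-type UMIs, 46.9% were in cells of no class, and cells with at least 5 Cdkn2a UMIs numbered 0, 6 and 7. Among cells of no class that carried at least 2 UMIs of myeloid markers (1856, 878 and 1211 cells), Cdkn2a stood at 1.23 (0.591 to 2.27), 10.5 (8.09 to 13.4) and 7.49 CPM (5.77 to 9.56). A single irradiated wild-type cell held 38 of 65 UMIs and another held 23. These cells carried macrophage genes, with 628 and 1497 UMIs of Lyz2 (lysozyme), 412 and 13 of Chil3, and 3 and 485 of Spp1. The 2 highest knockout cells, with 24 and 10 UMIs, held 2867 and 109 Lyz2 UMIs. All of these were deep cells. The irradiated wild-type ones held 26178 and 53769 UMIs of all genes, against a median of 4498.5 in their group. The knockout ones held 48727 and 62669, against a median of 4711. The part of depth in their Cdkn2a counts was not tested. Without the 2 highest cells of each library the levels were 0.739, 0.645 and 3.51 CPM, so the irradiated wild-type excess in these cells rested on 2 cells.

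In the leukocyte-marker-free endothelial cells Cdkn2a had 28, 12 and 17 UMIs, or 1.98 (1.31 to 2.86), 14.6 (7.56 to 25.6) and 11.7 CPM (6.81 to 18.7). The intervals of both irradiated libraries lay above that of the non-irradiated library, at ratios of 7.40 (3.43 to 15) and 5.91 (3.04 to 11.2). Both irradiated libraries were under the 30 UMIs that a call needs. The UMIs came from 18, 7 and 12 cells, or 0.859%, 7.95% and 5.58% of the selected cells. Without the 3 highest cells of each library the levels were 1.27 (0.754 to 2.01), 5.12 (1.39 to 13.1) and 6.33 CPM (2.90 to 12.0), and the irradiated wild-type interval then overlapped the non-irradiated one. Endothelial cells by the rule with at least 2 UMIs of the capillary genes Car4, Ednrb and Kdr, a subset of 1338, 79 and 175 cells, gave 2.53, 20.8 and 11.1 CPM. Those with none of the 3 genes gave 0.329, 1.65 and 4.18 CPM. NK cells, as a class with almost no Cdkn2a, had 0, 1 and 0 UMIs in 318, 339 and 463 cells at a median of 5017.5, 4403 and 4980 UMIs per cell.

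T cells held 20, 63 and 100 Cdkn2a UMIs, or 1.37 (0.839 to 2.12), 2.93 (2.25 to 3.75) and 2.38 CPM (1.93 to 2.89). In T cells without UMIs of Col1a1, Col1a2, Cdh5 and Epcam they were 1.76, 2.92 and 1.95 CPM, with ratios to the non-irradiated library of 1.65 (0.935 to 3.09) and 1.11 (0.636 to 2.04), both including 1. B cells held 4, 7 and 24, but in the irradiated wild-type library all 7 were in 1 cell and in the knockout library 83.3% were in 3 cells. In fibroblasts the counts were 13, 1 and 6 UMIs and in epithelial cells 2, 0 and 6, and no difference was detectable in them at this depth.

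**Figure D2:**
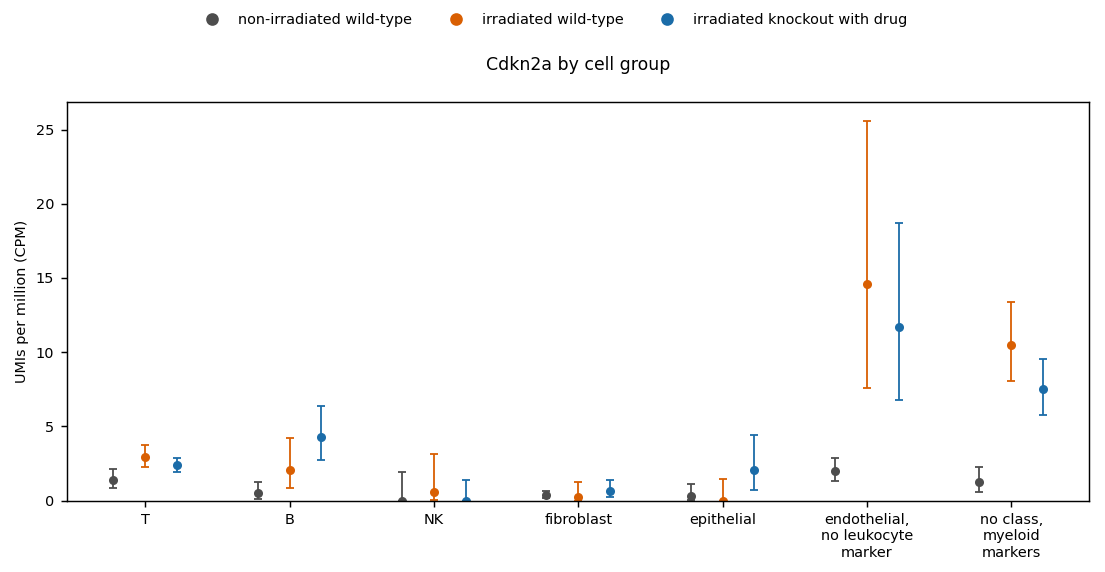
Cdkn2a in UMIs per 1000000 (CPM, vertical axis) by cell group, with points for libraries and bars for 95% counting intervals. The irradiated libraries are highest in leukocyte-marker-free endothelial cells (14.6 and 11.7 CPM) and in myeloid-marker cells of no class (10.5 and 7.49 CPM), where 2 cells hold most of the irradiated wild-type UMIs.

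Cdkn2b, an INK4 inhibitor known as a target of TGF-beta signalling, was highest in epithelial cells of the irradiated libraries. Epithelial cells held 82, 75 and 187 UMIs, or 12.9 (10.2 to 16.0), 29.9 (23.5 to 37.5) and 63.3 CPM (54.5 to 73.0), and no interval overlapped another. The irradiated wild-type library was 2.33-fold (1.68 to 3.22) and the knockout library 4.92-fold (3.78 to 6.46) above the non-irradiated one. The knockout library was 2.12-fold (1.61 to 2.81) above the irradiated wild-type one. The markers of the class also differed between the libraries: the 6 epithelial markers summed to 100454, 30998 and 37568 CPM and the 5 myeloid markers to 16066, 4546 and 3794 CPM. In the cells without leukocyte markers the epithelial markers summed to 110021, 35945 and 42704 CPM. The myeloid list there summed to 17667.5, 5359 and 3879 CPM, no lower than in all epithelial cells. The part of both lists in the Cdkn2b difference was not tested. A UMI of Cdkn2b was found in 11.4%, 24.6% and 18.9% of epithelial cells at a median depth of 10284, 12764.5 and 9163 UMIs. After every cell was thinned to 1000 UMIs, the shares were 1.38% (0.509 to 2.98), 1.71% (0.208 to 6.04) and 3.17% (1.17 to 6.78), from 6, 2 and 6 cells, and did not separate the libraries. B cells, which hold little of this gene, gave 0.842%, 1.05% and 1.97% at a median depth of 4745, 5020 and 6054 UMIs, and 0.281%, 0% and 0% after thinning. The order of the shares before thinning goes against that of the CPM between the irradiated libraries, so no order of those 2 is read from it.

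A few cells carried much of the knockout value. A single epithelial cell of that library held 40 Cdkn2b UMIs, and the 3 highest cells held 23.2%, 34.7% and 45.5% of each library's. Without those 3 cells the levels were 10.2 (7.86 to 13.1), 21.3 (15.8 to 28.2) and 35.4 CPM (28.9 to 43.0). The order of the 3 libraries was the same, although 3 cells are a larger share of the smaller libraries. In the 329, 82 and 109 epithelial cells without leukocyte markers the levels were 13.1, 32.3 and 69.0 CPM, with 56.3% of the knockout UMIs in 3 cells. Without the 3 highest cells of each library these became 9.86 (7.31 to 13.0), 22.2 and 31.2 CPM (24.2 to 39.7), and the intervals of the 2 irradiated libraries overlapped. With those cells kept, the irradiated wild-type library also passed the 2-fold rule, as 8.29% of genes did in the higher direction, and so did the knockout library, as 6.18% of genes did.

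The epithelial subsets had the same order. Cells with at least 2 UMIs of the alveolar type 2 genes Lamp3, Etv5 and Abca3 (249, 54 and 65 cells) stood at 13.2, 29.3 and 56.0 CPM. With the alveolar type 1 genes Ager, Hopx and Rtkn2 (266, 76 and 95 cells) the levels were 14.5, 32.9 and 74.0 CPM. With the ciliated-cell genes Foxj1, Ccdc153 and Tmem212 (37, 31 and 30 cells) they were 27.8, 33.6 and 48.6 CPM, and the intervals overlapped. Cells can fall in more than 1 of these subsets.

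**Figure D3:**
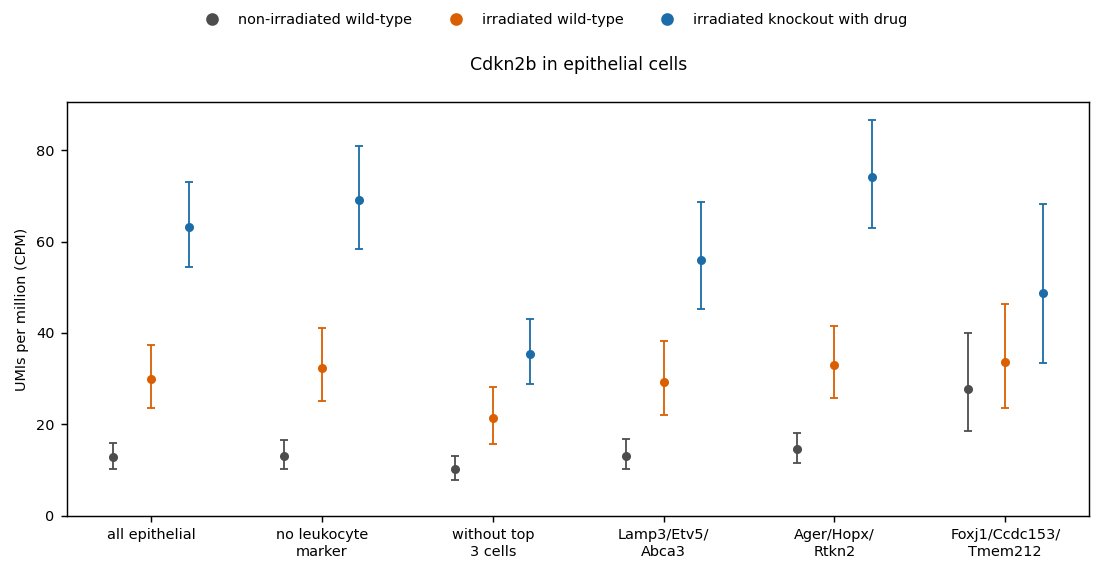
Cdkn2b in UMIs per 1000000 (CPM, vertical axis) in epithelial cells and subsets of them, with points for libraries and bars for 95% counting intervals. The knockout library falls from 63.3 to 35.4 CPM without its 3 highest cells and stays above the others, at 21.3 and 10.2 CPM.

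In endothelial cells by the rule, Cdkn2b stood at 12.6, 16.3 and 14.2 CPM, with overlapping intervals. In the leukocyte-marker-free cells it stood at 14.8 (12.9 to 17.0), 43.9 (30.7 to 60.8) and 26.8 CPM (19.1 to 36.7), from 210, 36 and 39 UMIs. The irradiated wild-type library was 2.96-fold (2.02 to 4.23) above the non-irradiated one and was called higher, as were 2.78% of genes in those cells. The knockout library was 1.81-fold (1.25 to 2.55) above it and was not called. The capillary-gene subset gave 19.0, 59.5 and 32.1 CPM. In the irradiated wild-type library 3 cells held 36.1% of the leukocyte-marker-free UMIs, and without the 3 highest cells of each library the levels were 13.7 (11.8 to 15.7), 29.9 (19.0 to 44.9) and 20.8 CPM (13.9 to 29.9). The epithelial markers in these cells, given above with the class, were at 6106, 7029 and 8204 CPM, and their part in the Cdkn2b difference was not tested.

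T cells also carried Cdkn2b, at 5.22 (4.11 to 6.53), 7.20 (6.11 to 8.43) and 10.3 CPM (9.36 to 11.3). Within them it followed a subset: T cells with a UMI of the γδ receptor gene Trdc had 14.8, 13.8 and 22.7 CPM, and Cd8 T cells 1.35, 1.63 and 2.85 CPM. Trdc cells numbered 397 of 1859, 851 of 2674 and 1649 of 5103 T cells, a larger share in the irradiated libraries. B cells, NK cells and fibroblasts were all under 5 CPM.

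**Figure D4:**
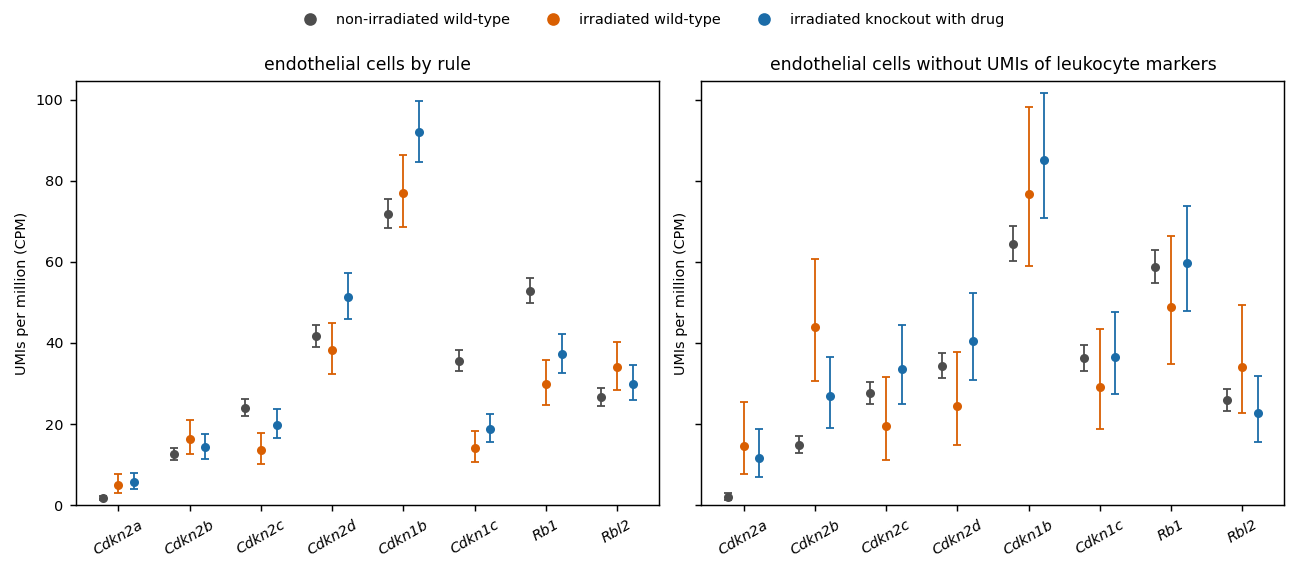
UMIs per 1000000 (CPM, vertical axis) of the 8 genes in endothelial cells by the rule (left) and in those without leukocyte markers (right), with points for libraries and bars for 95% counting intervals. The intervals of Cdkn1c and Rb1 separate the non-irradiated from the irradiated libraries on the left and overlap on the right, and those of Cdkn2b overlap on the left and separate on the right, at 14.8, 43.9 and 26.8 CPM.

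Cdkn2c, an INK4 inhibitor known from differentiating cells, marked fibroblasts. Fibroblasts held 2526, 383 and 760 UMIs, or 73.0 (70.1 to 75.9), 86.2 (77.8 to 95.3) and 80.1 CPM (74.5 to 86.0), against at most 23.9 CPM in any other class and library. The range over the libraries did not meet that of the next class, endothelium, while each further class in order overlapped the one above it. Irradiated wild-type fibroblasts were 1.18-fold (1.06 to 1.32) above non-irradiated ones, and 1.12-fold (0.984 to 1.27) in fibroblasts without leukocyte markers. Fibroblasts with the alveolar genes Npnt, Ces1d and Tcf21 stood at 88.0, 105 and 95.8 CPM, and those with at least 10 UMIs of Timp1, an inhibitor of matrix proteases, at 58.5, 52.1 and 43.1 CPM from 151, 31 and 70 cells. In epithelial cells Cdkn2c was at 14.1 (11.3 to 17.3), 4.78 (2.47 to 8.35) and 11.5 CPM (7.97 to 16.1), from 90, 12 and 34 UMIs. The irradiated wild-type epithelial level was 0.339 times the non-irradiated one (0.169 to 0.622), which with 5 CPM added falls short of the 2-fold rule. The endothelial difference by the rule, 23.9, 13.5 and 19.9 CPM, gave overlapping intervals in leukocyte-marker-free cells, at 27.6, 19.5 and 33.7 CPM. There, 3 cells held 81.25% of the 16 irradiated wild-type UMIs. Without the 3 highest cells of each library the levels were 26.3 (23.7 to 29.1), 4.06 (0.838 to 11.9) and 25.4 CPM (17.8 to 35.1). The irradiated wild-type interval, from 3 UMIs, then lay below the non-irradiated one. The 3 cells left out were of 2096 non-irradiated and 88 irradiated wild-type cells, and held only 5.12% of the non-irradiated UMIs. The step thus lowers the smaller library more, and no difference is read from it.

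Cdkn2d, an INK4 inhibitor known from lymphocytes and neurons, was lower in T cells of both irradiated libraries. T cells held 1506, 891 and 2617 UMIs, or 103 (98.3 to 109), 41.4 (38.7 to 44.2) and 62.2 CPM (59.8 to 64.6), with no overlap. The irradiated wild-type level was 0.400 times the non-irradiated one (0.368 to 0.435), and the knockout level 0.601 times (0.564 to 0.641). The knockout level was 1.5-fold (1.39 to 1.62) the irradiated wild-type level. A UMI of Cdkn2d was found in 44.8%, 23.3% and 31.8% of T cells at a median depth of 6828, 6614 and 6914 UMIs, and in 9.26%, 3.74% and 6.63% after thinning to 1000 UMIs. Shares in epithelial cells, the class with the lowest level, were 18.1%, 20.3% and 22.6% at the greater depth given above. The 3 highest cells held no more than 2.58% of the T cell UMIs in any library.

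The T cell difference was present in Cd8, Cd4 and Trdc T cells, though not at one size. Cd8 T cells stood at 133, 42.8 and 71.7 CPM and Cd4 T cells at 95.7, 33.3 and 50.7 CPM. Trdc T cells were at 79.2, 43.8 and 60.0 CPM. Markers of other cells moved in the same libraries: the fibroblast marker list summed to 2387, 401 and 601 CPM in T cells and the epithelial list to 2711, 112 and 319 CPM, each with all 6 markers detected. In T cells without UMIs of Col1a1, Col1a2, Cdh5 and Epcam, Cdkn2d was at 113, 41.1 and 63.5 CPM, as large a difference as in all T cells, and was called lower in the irradiated wild-type library where 1.53% of genes were.

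**Figure D5:**
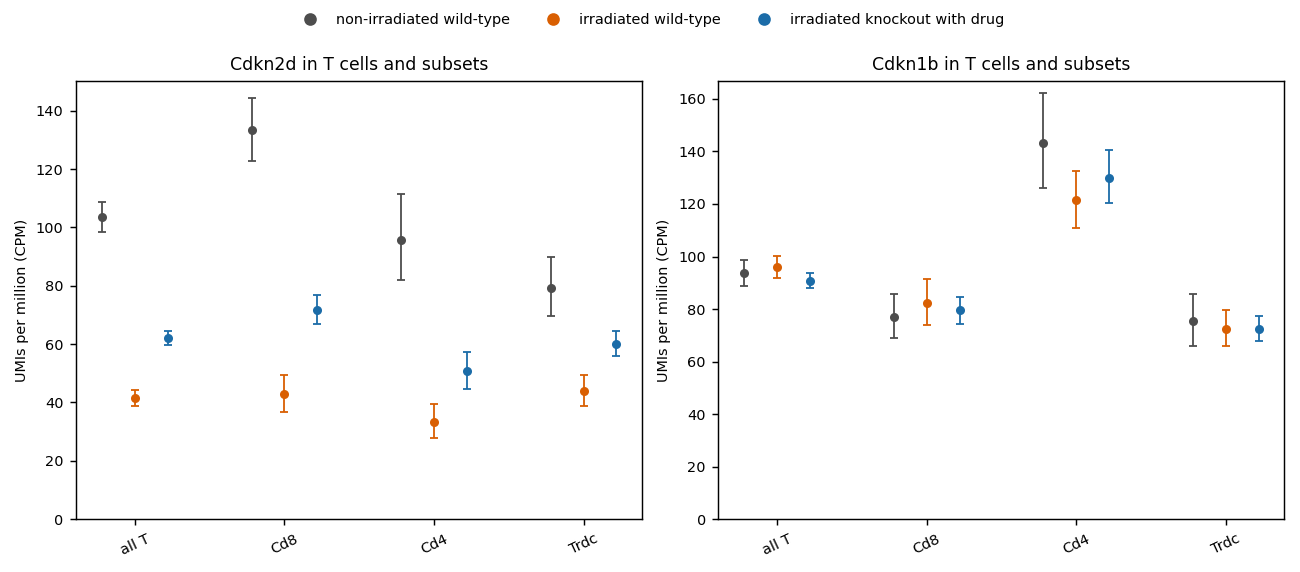
Cdkn2d (left) and Cdkn1b (right) in UMIs per 1000000 (CPM, vertical axis) in T cells and subsets, with points for libraries and bars for 95% counting intervals. Cdkn2d is lowest in the irradiated wild-type library in every subset shown, from 133 to 42.8 CPM in Cd8 cells, while Cdkn1b in all T cells is at 93.6, 96.0 and 90.8 CPM.

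Outside T cells, Cdkn2d was called only in epithelial cells. B cells stood at 73.8 (68.0 to 80.0), 51.8 (44.4 to 60.0) and 60.5 CPM (54.2 to 67.3), and NK cells at 86.9, 70.2 and 86.7 CPM with overlapping intervals. Fibroblasts were at 39.7, 37.1 and 37.0 CPM. Endothelial cells by the rule were at 41.6 (38.9 to 44.5), 38.1 (32.2 to 44.8) and 51.3 CPM (45.9 to 57.2), and without leukocyte markers at 34.4, 24.4 and 40.6 CPM with overlapping intervals. When the 3 highest leukocyte-marker-free cells of each library were left out, they were at 33.2 (30.3 to 36.4), 14.5 (7.25 to 26.0) and 35.9 CPM (26.6 to 47.3). The irradiated wild-type interval, from 11 UMIs, then lay below both others. The cells left out, 3 of 2096, 3 of 88 and 3 of 215, held 4.11%, 45% and 15.3% of the UMIs. The step thus lowers the smallest library most, and no difference is read from it. Epithelial cells had 114, 27 and 80 UMIs, or 17.9, 10.8 and 27.1 CPM, and the knockout level was called 2.52-fold (1.61 to 4.05) above the irradiated wild-type one. A single knockout cell held 24 of the 80 UMIs, and the 4 cells with at least 2 UMIs of the proliferation genes Mki67 and Top2a held 25 in all. Without the 3 highest cells of each library the levels were 16.4 (13.4 to 19.9), 8.90 (5.51 to 13.6) and 17.4 CPM (12.9 to 23.0). In epithelial cells without leukocyte markers the levels were 12.7, 10.9 and 11.9 CPM and the call was gone.

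Cdkn1b, which encodes the CIP/KIP inhibitor p27, was called in no class and no pair of libraries. T cells held 1363, 2067 and 3823 UMIs, or 93.6 (88.7 to 98.7), 96.0 (91.9 to 100.3) and 90.8 CPM (88.0 to 93.7). B cells stood at 50.5, 65.5 and 50.8 CPM, NK cells at 60.7, 73.5 and 65.7, fibroblasts at 55.9, 55.8 and 62.1, and epithelial cells at 39.3, 29.1 and 48.0. Endothelial cells were at 71.9 (68.3 to 75.6), 77.1 (68.6 to 86.3) and 92.0 CPM (84.7 to 99.8) by the rule, and at 64.5, 76.8 and 85.3 CPM without leukocyte markers, where the knockout level was 1.32-fold (1.09 to 1.60) the non-irradiated one. The ratio of irradiated to non-irradiated wild-type was 1.30 (1.10 to 1.53) in B cells and 0.740 (0.562 to 0.963) in epithelial cells. Cd4 T cells had the highest levels of the T cell subsets, at 143, 121 and 130 CPM.

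Cdkn1c, the imprinted CIP/KIP inhibitor p57, was highest in fibroblasts and epithelial cells. Fibroblasts stood at 73.0 (70.1 to 75.9), 62.6 (55.4 to 70.4) and 55.8 CPM (51.1 to 60.7), lower in both irradiated libraries, with ratios to the non-irradiated library of 0.858 (0.755 to 0.971) and 0.764 (0.695 to 0.840). In fibroblasts without leukocyte markers the levels were 74.9, 70.9 and 65.4 CPM and the ratios 0.946 (0.820 to 1.09) and 0.872 (0.782 to 0.971), so the irradiated wild-type interval then included 1. There, 3 irradiated wild-type cells held 16.1% of the UMIs, 1 of them with 21. Without the 3 highest cells of each library, non-irradiated fibroblasts stood at 73.8 CPM (70.6 to 77.2). Irradiated wild-type ones then stood at 60.5 CPM (52.1 to 69.8), and these intervals did not overlap. The cells left out were 3 of 3178 non-irradiated and 3 of 340 irradiated wild-type fibroblasts, and held 1.72% and 16.1% of the UMIs. The step thus lowers the smaller library more, and no difference is read from it. Epithelial cells stood at 52.0, 41.1 and 59.9 CPM. The 37, 31 and 30 epithelial cells with ciliated-cell genes held 206, 74 and 125 of the epithelial UMIs, at 197, 67.1 and 184 CPM. One knockout epithelial cell held 58 UMIs.

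The endothelial difference in Cdkn1c gave overlapping intervals once cells with leukocyte markers were left out. Both irradiated intervals lay below the non-irradiated one when the 3 highest cells of each library were also left out. Those were 3 of 2096, 3 of 88 and 3 of 215 cells, and they held 10.3%, 70.8% and 52.8% of the Cdkn1c UMIs. The step thus lowers the smaller libraries more, and no difference is read from it. In B cells without other-lineage markers the irradiated wild-type level was still lower but not called. By the rule, endothelial cells stood at 35.6 (33.1 to 38.3), 14.0 (10.5 to 18.3) and 18.8 CPM (15.6 to 22.5). Without leukocyte markers they stood at 36.2 (33.2 to 39.5), 29.3 (18.7 to 43.5) and 36.4 CPM (27.3 to 47.7), with overlapping intervals. In B cells the levels were 17.4 (14.7 to 20.5), 4.39 (2.46 to 7.24) and 6.62 CPM (4.66 to 9.12). The fibroblast marker list in B cells moved the same way, at 2888, 868 and 463 CPM. B cells without UMIs of Col1a1, Col1a2, Cdh5 and Epcam had 36, 7 and 28 UMIs of Cdkn1c, or 7.63, 2.50 and 6.50 CPM. The irradiated wild-type level was there 0.328 times the non-irradiated one (0.123 to 0.747), against 0.252 (0.137 to 0.430) in all B cells, and missed the 2-fold rule with 5 CPM added. The knockout level was there 0.852 times the non-irradiated one (0.501 to 1.44), against 0.380 (0.257 to 0.549) in all B cells.

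Rb1, the retinoblastoma pocket protein, differed by less than 2-fold in every class. Fibroblasts stood at 21.0, 21.2 and 21.0 CPM. T cells were at 22.3 (19.9 to 24.8), 26.2 (24.0 to 28.4) and 21.0 CPM (19.6 to 22.4), and B cells at 33.8, 41.3 and 29.7 CPM. Endothelial cells by the rule were at 52.8 (49.8 to 56.0), 29.8 (24.6 to 35.8) and 37.3 CPM (32.7 to 42.3). Without leukocyte markers they were at 58.8 (54.9 to 62.9), 48.8 (34.8 to 66.4) and 59.8 CPM (47.9 to 73.8), with overlapping intervals, above the B cells without markers of other lineages, the next class, whose highest library was at 42.9 CPM.

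Rbl2, which encodes p130, the pocket protein of the DREAM complex in resting cells, was highest in NK cells and fibroblasts. NK cells held 101, 139 and 120 UMIs, or 51.9 (42.3 to 63.1), 78.6 (66.1 to 92.9) and 44.1 CPM (36.5 to 52.7). The irradiated wild-type library was above both others, 1.51-fold (1.16 to 1.98) over the non-irradiated one, and the knockout level was 0.560 times the irradiated wild-type one (0.435 to 0.721). None of these passed the 2-fold rule. With at least 2 Ncr1 UMIs required, the log2 ratio of irradiated to non-irradiated wild-type was 0.08 in place of 0.56. T cells were at 24.3, 31.7 and 25.4 CPM, again highest in the irradiated wild-type library. Fibroblasts were at 40.1 (38.0 to 42.3), 48.2 (41.9 to 55.1) and 48.7 CPM (44.4 to 53.4). In those without leukocyte markers the ratios to the non-irradiated library were 1.09 (0.909 to 1.30) and 1.30 (1.15 to 1.47).

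The reference gene Cdkn1a set a scale for these differences. In leukocyte-marker-free endothelial cells it stood at 219, 867 and 731 CPM, in fibroblasts at 130, 346 and 256 CPM, and in epithelial cells at 196, 617 and 567 CPM. In T cells it was at 235, 203 and 184 CPM. The other genes of the pathway were taken as lists. Of 10 G1 cyclins and kinases, all 10 had enough UMIs in T cells, and 1 was lower and 0 higher in irradiated wild-type cells: Ccnd1 (cyclin D1), at 7.81 against 23.6 CPM. Of all genes in T cells 5.23% were called lower in that pair. In T cells without stromal or epithelial markers Ccnd1 was at 5.78 against 7.72 CPM, which is no call. In leukocyte-marker-free endothelial cells Ccnd1 was at 405, 881 and 765 CPM. None of 16 E2F and DREAM complex genes was called in T cells, and their median log2 ratio was 0.17 beside 0.07 for all genes. In NK cells 1 of 5 tested was higher in the irradiated wild-type library, as 1.05% of all genes were: Lin54, a DREAM subunit, at 95.6 against 42.7 CPM.

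Genes of S and M phase differed between the 2 endothelial selections. By the rule, 15 of 18 were called higher in the irradiated wild-type library, as 5.87% of all genes were, and 15 of 18 in the knockout library, as 4.47% were, with median log2 ratios of 1.21 and 1.48 beside -0.21 and -0.19 for all genes. In the leukocyte-marker-free cells 1 of 7 tested was, Birc5, beside 2.78% of all genes, and the median was -0.09, beside -0.16 for all genes. For the knockout library 3 of 7 were, Mki67, Top2a and Cdk1, beside 2.18% of all genes, and the median was 0.83, beside -0.05. In T cells 0 of 18 were called in either irradiated library, with medians of 0.52 and 0.17. For all genes in T cells the medians were 0.07 and 0.006, and 5.23% were called lower in the irradiated wild-type library. Among 8 Polycomb genes, which are known to repress Cdkn2a, only Bmi1 was called in any class, lower in endothelial cells by the rule at 20.8 against 51.6 CPM in the irradiated wild-type library. It was at 59.7 against 61.6 CPM without leukocyte markers. Among 6 genes of p27 turnover only Cks1b was called, higher in the endothelial cells by the rule at 43.6 and 51.5 CPM in the irradiated libraries against 11.3 CPM. Of 8 transcription factors known to act on these genes only Smad3 was called, also there, at 60.5 CPM in the irradiated wild-type against 20.6 CPM in the non-irradiated library. Among all genes in that selection 12.4% were called lower in the irradiated wild-type library, and 5.87% and 4.47% higher in the 2 irradiated libraries. Ptprc was found in 22.7%, 73.3% and 60.3% of those cells. Leukocyte-marker-free levels of Cks1b and Smad3 are not given here, and the part of leukocytes in them was not tested.

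Over the 18 combinations of class and library, the genes whose levels ran most like each member were found among 9215 genes by Pearson's r of log2(CPM + 5). Cdkn2c ran with Zfpm2 and Ccbe1, both at r = 0.97, Rbl2 with Urgcp (r = 0.98) and Esyt1 (0.94), and Cdkn1c with Fkbp2 and Echs1 (both 0.97). Cdkn2d ran with Selenok (0.94) and Rpp25l (0.92), Cdkn1b with Mbd2 (0.93) and Ssh2 (0.92), and Cdkn2b with Noct (0.93) and Avpi1 (0.92). Rb1 ran with Phlpp1 (0.91) and Fam111a (0.88), and Cdkn2a with Birc5 (0.88) and Samhd1 (0.82). The 18 values share 3 libraries, and the endothelial ones hold leukocytes after irradiation, so these are descriptions.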

How the data were processed

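The values used were raw UMI counts, deposited by the authors as 1 sparse matrix of genes by cells for each 10x 3′ library. The matrix headers give 3.1.0 as the version of the program that wrote them, and the submitters' processing notes name mm10 as the build. No barcode in the files had fewer than 500 UMIs. Barcodes with at least 250 genes and at most 15% mitochondrial UMIs were kept. Classes were T (at least 2 UMIs of Cd3d, Cd3e and Cd3g), B (2 of Cd79a), NK (1 of Ncr1, none of Cd3d, Cd3e and Cd3g), endothelial (2 of Pecam1 and Cdh5), fibroblast (2 of Col1a1 and Col1a2) and epithelial (1 of Epcam, none of Ptprc). UMIs were summed per class and library. CPM has exact Poisson intervals, ratios exact conditional binomial ones, and shares exact Clopper-Pearson ones, all at 95%. Doublets were kept, and removing cells by Scrublet score (scanpy 1.11.5) was an alternative. List medians use log2 ratios with 5 CPM added. All 8 genes are named, and of each list those called. The 8 genes and the lists were chosen with earlier results of these data known. The scoring was tested on simulated data. Sums and intervals used scipy 1.17.1 with numpy 2.4.6 and pandas 2.3.3 under Python 3.11.15, and plots used matplotlib 3.10.9.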

Additional observations from a re-analysis of the deposited data

How the results depend on the processing

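With 1 library per group no library could be left out, and no paired analysis was possible because each group has 1 library. Counts of called combinations were 3, 1 and 1 for the irradiated against the non-irradiated wild-type, the knockout against the non-irradiated wild-type, and the knockout against the irradiated wild-type library. A 1.5-fold threshold gave 8, 5 and 5, with 1 higher and 7 lower, 2 and 3, and 4 and 1. The share of all genes past 1.5-fold is not given here, so these counts are not read against a background. Adding 20 CPM gave 1 in the first and 0 in the third. With female cells only the second and the third gave 2 each. The third also gave 2 under median-of-ratios scaling, with doublets removed and in cells of exactly 1 class, and 0 after thinning to 1000 UMIs, without Mki67 and Top2a cells, and without cells that carry a marker of another lineage, a setting added after the data were seen. Cdkn2d in T cells stayed called in the first pair under all 13 settings, at log2 ratios from -1.42 (cells of exactly 1 class) to -1.01 (20 CPM added). Of the 3 main calls of that pair, only it was also called without cells that carry a marker of another lineage. Cdkn2b in epithelial cells of the second pair had log2 ratios from 1.48 to 2.42 at 5 CPM added, and after thinning it had too few UMIs for a call. Of the other recomputed ratios, 1456 stayed within their counting interval and 116 moved further, and no called ratio changed direction. Cdkn2a in every class, and all genes in NK and epithelial cells of the irradiated libraries, are limited by depth.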

Other observations

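T cells with UMIs of proliferation genes held more Cdkn2a per 1000000 UMIs than the rest in these libraries, though from few UMIs. How many cells held those UMIs is not given here. In T cells without other-lineage markers 3 cells held 56.25%, 25% and 17.4% of the Cdkn2a UMIs. T cells with at least 2 UMIs of Mki67 and Top2a (63, 139 and 201 cells, libraries in the order used above) stood at 7.02, 9.85 and 6.36 CPM from 6, 28 and 21 UMIs, and the other T cells at 1.02, 1.87 and 2.04 CPM. In the same cells Cdkn2c was at 35.1, 13.7 and 18.8 CPM, against 14.7, 12.1 and 13.5 CPM in the other T cells. Cdkn2d in them was at 101, 42.2 and 64.8 CPM, close to the 104, 41.3 and 61.9 CPM of the others.

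Cells of no class with at least 2 UMIs of myeloid markers held Cdkn2d at 55.4 (50.4 to 60.8), 53.5 (47.9 to 59.6) and 77.8 CPM (72.0 to 84.0) and Rbl2 at 24.6 (21.3 to 28.3), 37.7 (33.0 to 42.9) and 28.6 CPM (25.1 to 32.4). The highest Cdkn2d counts in a single such cell were 7, 25 and 40 UMIs.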
